A study of Danio rerio with 9 samples.

Results

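The aminoacyl-tRNA synthetase genes were followed in single primordial germ cells (PGCs) of zebrafish at 6, 11 and 24 hours post fertilization (hpf). Members were chosen by symbol alone, as every gene called by an amino acid letter followed by ars, with or without a closing a, b or 2, together with eprs. This gave 36 of the 32266 genes in the deposited table, of which 22 were taken as cytosolic and 14, with symbols ending in 2, as mitochondrial. The 36 genes carry 35 symbols, because 2 identifiers share the symbol larsa. The embryos were of the AB strain and carried the transgene kop-egfp-nanos3-3ʹUTR, whose green fluorescence in PGCs allowed each cell to be picked by hand in a glass capillary. The groups were 3 PGCs of 1 embryo at 6 hpf (shield stage), 3 PGCs of 1 embryo at 11 hpf (3-somite stage) and 3 PGCs of 1 embryo at 24 hpf (prim-5 stage, from the trunk after head, tail and yolk were removed). Cells are named by stage and number, as 6_1 to 24_3. Since the embryo is the independent sample, each stage is 1 sample, no difference between stages was tested, and every comparison is a description of these 9 cells.

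Aminoacyl-tRNA synthetases join each amino acid to its own tRNA, the step that sets the genetic code before the ribosome is reached. The cytosol and the mitochondrion mostly use enzymes from separate nuclear genes, and those for mitochondria are imported after translation. The enzymes belong to classes I and II, which differ in the fold of the catalytic domain. In animals a set of the cytosolic enzymes, with the scaffold proteins Aimp1, Aimp2 and Eef1e1, forms the multisynthetase complex, while the others work outside it. Every dividing or growing cell needs the whole cytosolic set.

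Values are FPKM, fragments counted on a gene divided by its length and by all mapped fragments of the library, so that levels of different genes can be set beside each other. They are relative to all transcripts of a cell, and the amount of RNA per cell is unknown. The table has no read counts, so the depth behind a value cannot be given, and a 0 may also mean that capture failed. Among genes with at least 1 FPKM in all 8 other cells, between 4.06% and 8.25% were below 1 in the cell left aside, except in 24_1, where 19.0% were. Of 12 germline markers, 8 to 12 were at 1 FPKM or more in each library, and they summed to between 11602 and 13964 FPKM at 24 hpf, against 18132 to 44649 in the earlier cells. Of 15 muscle markers, 9 reached 1 FPKM in 24_1, 10 in 24_2 and 3 in 24_3, with summed levels of 665, 2682 and 49.3 FPKM, against at most 3 markers and 52.8 FPKM in any cell at 6 or 11 hpf. In 24_2 also 7 of 9 yolk syncytial layer markers and 3 of 6 endothelial markers reached 1 FPKM, against at most 3 and 0 in the earlier cells. The 9 neural markers summed to 61.0, 98.1 and 44.4 FPKM in 24_1, 24_2 and 24_3, with 1, 2 and 3 of them at 1 FPKM or more, against at most 41.3 FPKM and 2 markers earlier, while elavl3 was listed at 0 at 24 hpf and gfap in every cell. The 8 epidermal markers summed to 213, 0 and 29.9 FPKM at 24 hpf, against 0 to 180 earlier, and of 7 erythroid markers at most 1 was found in a cell.

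Each cell held a larger part of the cytosolic than of the mitochondrial synthetase set. Counted at 1 FPKM or more, the cytosolic members present numbered 17, 14 and 14 of 22 at 6 hpf, 19, 11 and 16 at 11 hpf, then 12, 13 and 16 at 24 hpf. The mitochondrial members present were 5, 6 and 1 of 14 at 6 hpf, 5, 3 and 4 at 11 hpf, then 3, 3 and 5 at 24 hpf. The counts of the stages overlapped in both compartments. Detection over all genes that reached 1 FPKM in 3 or more cells fell with stage. Of their values, 74.1% at 6 hpf, 67.2% at 11 hpf and 58.9% at 24 hpf were at 1 FPKM or more. That limit was not applied to the member counts. No cell had the complete cytosolic set. Of the 20 amino acids, a cytosolic enzyme gene (both subunit genes for phenylalanine) reached 1 FPKM for 14, 14 and 12 at 6 hpf, for 18, 11 and 16 at 11 hpf, then for 12, 11 and 16 at 24 hpf. As these genes are used by every cell, a member at 0 is described below only as listed at 0.

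**Figure D1:**
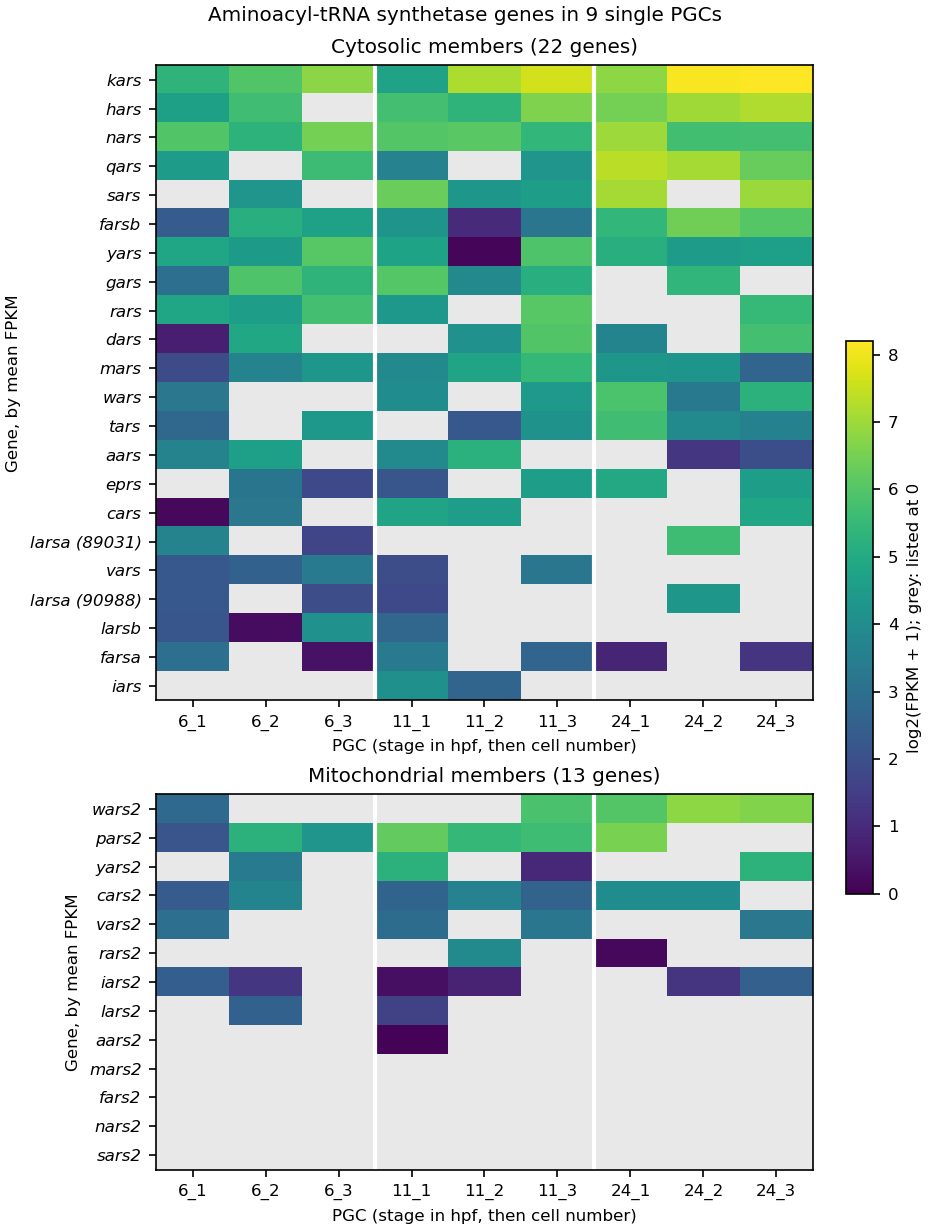
Level of each member in each of the 9 PGCs, as log2 of the FPKM plus 1, with the 22 cytosolic genes above and 13 mitochondrial genes below, and grey for values listed at 0. kars, nars, mars, farsb and yars fill all 9 columns. In contrast, 4 mitochondrial rows are grey throughout and every other mitochondrial row shown is grey in at least 1 cell.

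Only kars, nars and mars, which charge lysine, asparagine and methionine, were at 1 FPKM or more in all 9 cells. kars (ENSDARG00000103799) had the highest mean over the cells and was the most abundant cytosolic member in 6 of them. Its FPKM was 39.6, 62.1 and 109 at 6 hpf, 25.2, 145 and 199 at 11 hpf, then 111, 276 and 289 at 24 hpf. The single kars gene of vertebrates is known from human to give both the cytosolic and the mitochondrial lysyl enzyme, so its level cannot be assigned to 1 compartment. nars (ENSDARG00000061100) varied least among the members compared between stages (SD of log2 values over the 9 cells), with an FPKM of 61.7, 38.3 and 89.6 at 6 hpf, 63.3, 68.4 and 41.6 at 11 hpf, then 127, 51.2 and 52.6 at 24 hpf. The nars levels of all stages overlapped. mars (ENSDARG00000034396), at 2.64, 11.7 and 19.2 FPKM at 6 hpf, 13.8, 26.7 and 43.3 at 11 hpf, then 19.4, 17.9 and 5.38 at 24 hpf, was less abundant than nars in all cells but 11_3, where nars was at 41.6 and mars at 43.3 FPKM. yars, for tyrosine, was at 1 FPKM or more in 8 cells, at levels from 21.1 to 66.9 in these, and at 0.106 in 11_2.

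At the low end of the cytosolic set, iars (ENSDARG00000007955), the isoleucyl enzyme gene, was found only in 11_1 at 16.2 FPKM and in 11_2 at 5.44 FPKM, and was listed at 0 in the 7 other cells. It was the only cytosolic member that did not reach 1 FPKM in 3 cells, the limit used for comparing stages. Of the mitochondrial members 8 of 14 did not reach it. mars2, fars2, nars2 and sars2 were listed at 0 in every cell, and aars2 had 0.0622 FPKM in 11_1 and was listed at 0 elsewhere. rars2 was found at 14.2 FPKM in 11_2 and at 0.128 in 24_1. lars2 was at 4.85 in 6_2 and 2.01 in 11_1. The other 27 members, 21 cytosolic and 6 mitochondrial, passed the limit.

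Added up per cell, cytosolic synthetase transcripts were most abundant at 24 hpf. The summed FPKM of the 22 cytosolic members was 272, 394 and 504 at 6 hpf, 471, 399 and 729 at 11 hpf, then 873, 849.6 and 986 at 24 hpf. The lowest cell at 24 hpf thus lay above the highest cell of either earlier stage, while 11 and 6 hpf overlapped. As a share of all FPKM in the cell this was 0.0476%, 0.0672% and 0.0908% at 6 hpf, 0.0854%, 0.0710% and 0.133% at 11 hpf, then 0.142%, 0.144% and 0.171% at 24 hpf. The mean sum was 1.69 times higher at 24 than at 11 hpf, and 1.58 times higher both with a common total per cell and with median-of-ratios scaling. The muscle and neural marker sums were also higher in these cells than earlier for all but 1 value (muscle in 24_3), and germline marker sums lower, and their part in the difference was not tested.

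This difference lay mostly in a few genes, picked by ranking the members on this same difference. qars held 31.3% of the difference in mean sum between 24 and 11 hpf, kars 27.6%, hars 15.9%, farsb 14.7% and sars 12.3%. These make 102%, since the remaining 17 genes were together slightly lower. Among the 17, changes went both ways, with wars differing by 23.4 and gars by -23.9 FPKM in mean. The genes left out below were chosen after the values were seen, so a smaller gap without them follows from the choice. Without kars the sums were 762, 573 and 697 at 24 hpf, against 446, 254 and 529 at 11 hpf, and still did not overlap, though with a common total per cell the nearest sums were 968.8 in 24_2 and 964.0 in 11_3. Without kars and qars they were 599, 438 and 619 at 24 hpf, against 435, 254 and 511 at 11 hpf, and overlapped. Without those 5 genes, a set chosen after the values were seen, the remaining cytosolic members summed to 332, 225 and 283 at 24 hpf, against 283, 195 and 383 at 11 hpf.

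**Figure D2:**
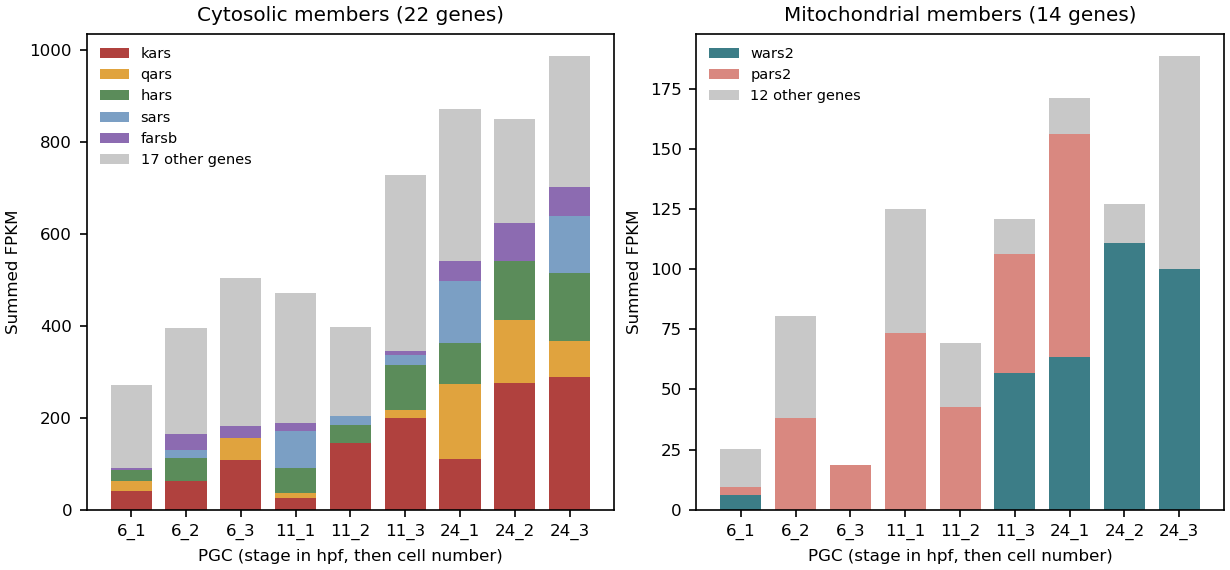
Summed FPKM per PGC of the 22 cytosolic members (left, with 5 genes coloured) and the 14 mitochondrial members (right, with wars2 and pars2 coloured). The cytosolic bars at 24 hpf reach from 849.6 to 986 and exceed the earlier ones, while the grey part, the 17 other genes, is of like height at 11 and 24 hpf.

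Comparison of 11 with 6 hpf asks what changed while PGCs were migrating. The difference of a gene is log2 of the later mean FPKM plus 1 minus the same for the earlier stage, and its spread is the root of the added variances of log2(FPKM+1) of either stage. A difference of at least 1 in size is counted as 2-fold on this scale, which understates the change of low genes. By this measure 10 of the 27 members compared (37.0%) were 2-fold higher at 11 hpf and 5 (18.5%) were 2-fold lower. Of all 9329 genes compared, 21.7% were 2-fold higher and 21.8% 2-fold lower, so that differences of this size were common. The higher members were the cytosolic hars, sars, dars, mars, wars, eprs and cars and the mitochondrial wars2, pars2 and yars2. The lower ones were the cytosolic qars, farsb, larsb and 1 of the larsa genes, and the mitochondrial iars2. The median difference was 0.06 over the cytosolic and 1.12 over the mitochondrial members, against 0.03 over all genes. The first changed sign with median-of-ratios scaling and without 6_1 or 11_3, and both lay within the spread between cells, 1.89 and 1.97. The mitochondrial median was 0.44 without 11_3, 0.59 without 11_1, 1.84 without 6_2 and 0.01 with no filter on low values.

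No member had higher levels in every cell at 11 hpf than at 6 hpf except sars and pars2, which makes 7.41% of the members beside 5.78% of all genes. Both also passed the 2-fold limit, as 4.89% of all genes did in this direction and 6.19% in the other. sars (ENSDARG00000008237), for serine, had an FPKM of 80.1, 19.2 and 22.9 at 11 hpf, against 18.5 in 6_2 and values listed at 0 in 6_1 and 6_3. The difference was 2.55 with a spread of 2.70, and the gap between 19.2 and 18.5 closed with median-of-ratios scaling. pars2 (ENSDARG00000044404), the mitochondrial prolyl enzyme, was at 73.5, 42.7 and 49.3 FPKM at 11 hpf, against 3.50, 38.0 and 18.4 at 6 hpf, a difference of 1.42 with a spread of 1.64. It stayed apart under each scaling. No member was lower in every cell at 11 hpf, where 6.96% of all genes were.

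Between 11 and 24 hpf, when PGCs settle in the gonadal region, cytosolic members differed in both directions. Of the 21 cytosolic members compared, 7 were 2-fold higher at 24 hpf and 5 were 2-fold lower, and of the 6 mitochondrial ones 2 were higher and 0 lower. The higher ones were qars, sars, farsb, wars, tars, both larsa genes, wars2 and iars2, and the lower ones gars, aars, larsb, vars and farsa. Together 33.3% of the members were 2-fold higher and 18.5% 2-fold lower, beside 26.1% and 31.5% of all genes. The median difference was 0.41 over the cytosolic and 0.20 over the mitochondrial members, against -0.08 over all genes, and both were far inside the spread between cells, 1.90 and 1.82. Without 24_1 the cytosolic median was 0.02, and without 24_2 it was 0.01.

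The members whose 3 cells at 24 hpf all exceeded the 3 at 11 hpf were qars, farsb and wars2, 11.1% of the members beside 8.62% of all genes. Of these, wars2 passed the limit for comparison only through its cells at 24 hpf, where it was high. Each also passed the 2-fold limit, as 7.89% of all genes did in this direction and 9.79% in the other. All of them exceeded the cells at 6 hpf as well, and 6.13% of all genes were above every cell of both earlier stages. No member was lower in every cell at 24 hpf than at 11 hpf, where 10.2% of all genes were.

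qars (ENSDARG00000010316) encodes the glutaminyl enzyme, a class I synthetase of the multisynthetase complex. Its FPKM was 21.9, 0 and 47.8 at 6 hpf, 11.4, 0 and 18.6 at 11 hpf, then 163, 136 and 78.3 at 24 hpf. The lowest cell at 24 hpf was thus several times above the highest at 11 hpf. The difference between 24 and 11 hpf was 3.53 with a spread of 2.37, the largest of any member whose stages did not overlap.

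farsb (ENSDARG00000016864) encodes the beta subunit of the cytosolic phenylalanyl enzyme, which works as a tetramer with the alpha subunit from farsa. Its FPKM was 4.25, 34.0 and 24.7 at 6 hpf, 18.1, 0.952 and 8.36 at 11 hpf, then 42.3, 83.9 and 64.8 at 24 hpf, and the difference between 24 and 11 hpf was 2.67 with a spread of 1.75. The partner farsa (ENSDARG00000098825) went the other way in these means, with 6.97, 0 and 0.307 FPKM at 6 hpf, 9.59, 0 and 5.41 at 11 hpf, then 0.783, 0 and 1.39 at 24 hpf. Its difference of -1.80 lay within a spread of 1.90, and its stages overlapped. farsb was above farsa in 8 of 9 cells, all except 6_1.

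wars2 (ENSDARG00000011801), the mitochondrial tryptophanyl enzyme, had 5.94 FPKM in 6_1 and 56.9 in 11_3 and was listed at 0 in the 4 other early cells. At 24 hpf it was at 63.6, 111 and 100.1 FPKM. The difference between 24 and 11 hpf was 2.21 with a spread of 3.41, and the gap from 63.6 in 24_1 to 56.9 in 11_3 was narrow, at 103.76 against 103.74 once each cell was scaled to the same total. Its cytosolic counterpart wars (ENSDARG00000100954) was also highest in mean at 24 hpf, with 58.4, 9.02 and 38.0 FPKM, against 15.0, 0 and 20.1 at 11 hpf, but here the cells of the stages overlapped.

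**Figure D3:**
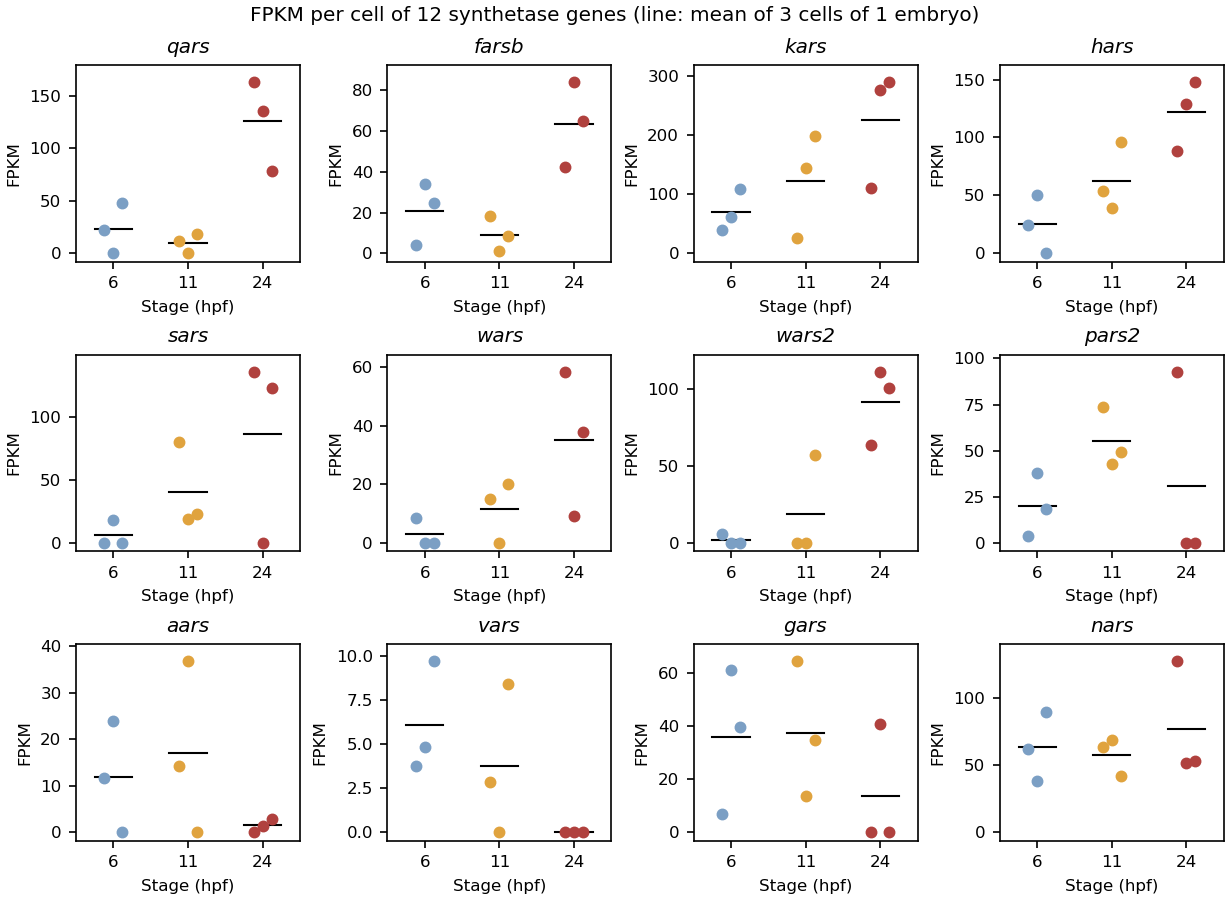
FPKM per cell of 12 members at 6, 11 and 24 hpf, with a line at the mean of the 3 cells of 1 embryo. For qars, farsb and wars2 the points at 24 hpf lie above all earlier points, for kars, hars and sars the mean is higher but the points overlap with those at 11 hpf, and for aars, vars and gars the points at 24 hpf are at or near 0 in at least 2 cells.

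Other abundant cytosolic members were higher in mean at 24 hpf with cells that overlapped. hars (ENSDARG00000003693), for histidine, was at 24.5, 50.2 and 0 FPKM at 6 hpf, 53.4, 38.9 and 96.1 at 11 hpf, then 88.5, 129 and 148 at 24 hpf. Its difference between 24 and 11 hpf of 0.94 exceeded its spread of 0.75, while 24_1 stayed below 11_3. The table of gene names pairs this identifier with the symbol HARS2, so its compartment is uncertain. kars differed by 0.87 with a spread of 1.76, and sars, at 136, 0 and 123 FPKM at 24 hpf, by 1.07 with a spread of 4.20. tars, for threonine, was at 50.6, 14.01 and 11.3 FPKM at 24 hpf, against 0, 3.77 and 17.6 at 11 hpf, and differed by 1.69 with a spread of 2.39.

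A second set of cytosolic members was low or listed at 0 at 24 hpf. vars (ENSDARG00000044575), for valine, was at 3.77, 4.82 and 9.69 FPKM at 6 hpf, at 2.87 in 11_1 and 8.38 in 11_3, and was listed at 0 in 11_2 and at 24 hpf. larsb (ENSDARG00000019280), for leucine, was at 3.55, 0.22 and 16.8 FPKM at 6 hpf and 5.57 in 11_1, and was listed at 0 in the 5 remaining cells. aars (ENSDARG00000069142), for alanine, was at 11.8, 24.0 and 0 FPKM at 6 hpf, 14.2, 36.7 and 0 at 11 hpf, then 0, 1.45 and 2.96 at 24 hpf. gars (ENSDARG00000059070), for glycine, was at 6.94, 61.1 and 39.4 FPKM at 6 hpf, 64.2, 13.6 and 34.6 at 11 hpf, then 40.7 in 24_2 alone at 24 hpf. The differences between 24 and 11 hpf were -2.86 for aars, with a spread of 2.91, and -1.40 for gars, with a spread of 3.29. For larsb the difference was -1.51 with a spread of 1.57. Only for vars did it exceed the spread, at -2.25 against 1.63. For each of these 4 genes the cells at 24 and 11 hpf overlapped. 24_1 was also the library in which 19.0% of genes found in the 8 other cells were below 1 FPKM, and the part of this in its zeros was not tested.

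The levels at 24 hpf were also set against those at 6 hpf, a comparison added after the values were seen and sharing the cells at 24 hpf with the one above. Here 6 of the 27 members were higher in every cell at 24 hpf, namely qars, farsb, wars2, hars, kars and wars, which makes 22.2% beside 10.4% of all genes. For kars the gap was from 111 FPKM in 24_1 to 109 in 6_3 and closed under both other scalings, and for wars it was from 9.02 in 24_2 to 8.54 in 6_1 and closed with median-of-ratios scaling. hars, qars, farsb and wars2 stayed apart under each scaling. vars and larsb, 2 of the 27 members, were lower in every cell at 24 hpf, beside 14.6% of all genes. wars2 passed the limit for comparison only through its cells at 24 hpf, and vars and larsb only through theirs at 6 hpf. For larsb the gap was from 0.22 FPKM in 6_2 to values listed at 0.

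The cytosolic enzyme genes without a shared complex and those of the complex were both highest in sum at 24 hpf. The 10 genes of the complex (dars, eprs, iars, kars, larsa under 2 identifiers, larsb, mars, qars and rars) summed to 111, 134 and 253 FPKM at 6 hpf, 98.2, 194 and 414 at 11 hpf, then 335, 499 and 493 at 24 hpf, with 24_1 below 11_3. The 12 others summed to 161, 260.5 and 250.5 at 6 hpf, 373, 205 and 315 at 11 hpf, then 538, 351 and 493 at 24 hpf, with 24_2 below 11_1. Within the complex kars and qars held most of the sum at 24 hpf, while the remaining enzymes were uneven. rars, for arginine, was at 27.3, 22.5 and 53.2 FPKM at 6 hpf, at 19.8 in 11_1, 66.9 in 11_3 and 44.2 in 24_3, and was listed at 0 in the other 3 cells. eprs, which joins glutamate and proline to their tRNAs in 1 protein, was at 8.04 and 2.49 in 6_2 and 6_3, 3.62 and 23.3 in 11_1 and 11_3, and 30.1 and 22.4 in 24_1 and 24_3. dars, for aspartate, was between 12.1 and 62.1 FPKM in 5 cells, at 0.598 in 6_1 and listed at 0 in 3.

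The 3 scaffold genes of the complex were measured and were each at 1 FPKM or more in all 9 cells. aimp1 (ENSDARG00000060036) was at 47.5, 124 and 13.3 FPKM at 6 hpf, 48.1, 23.0 and 80.5 at 11 hpf, then 566, 180.1 and 274 at 24 hpf. All its cells at 24 hpf exceeded all earlier ones, as in 6.13% of all genes, and the difference between 24 and 11 hpf was 2.73 with a spread of 1.22. Of the 3 scaffold genes, 1 was thus 2-fold higher at 24 than at 11 hpf and 1 higher in every cell. The shares of all genes were 26.1% and 8.62%. aimp2 ranged from 20.5 to 119 FPKM and eef1e1 from 26.1 to 207 FPKM over the 9 cells, and both overlapped between all stages.

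The leucyl enzyme gene larsa appeared under 2 identifiers. ENSDARG00000089031 was at 11.6 FPKM in 6_1, 2.27 in 6_3 and 49.8 in 24_2, and ENSDARG00000090988 at 3.79 in 6_1, 2.87 in 6_3, 2.53 in 11_1 and 19.1 in 24_2. Outside 11_1 the same cells carried them. Whether reads were shared between these entries was not tested, and their values at 24 hpf rest on 24_2, the cell with the muscle, yolk and endothelial markers, whose part in them was not tested. cars, for cysteine, was at 8.45 FPKM in 6_2, 26.7 in 11_1, 23.1 in 11_2 and 28.0 in 24_3, at 0.124 in 6_1 and listed at 0 in the remaining 4 cells.

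Taken by symbol, mitochondrial synthetase transcripts were the smaller part of the total in each cell. They held 8.42%, 16.99% and 3.52% of the summed FPKM of all members at 6 hpf, 20.9%, 14.8% and 14.2% at 11 hpf, then 16.4%, 13.0% and 16.04% at 24 hpf. This order depends on the placing of kars and hars, whose compartment is uncertain, as is that of gars, which was not moved. With both counted as mitochondrial, an alternative added after the values were seen, the mitochondrial share was 30.0%, 40.6% and 24.3% at 6 hpf, 34.1%, 54.1% and 49.0% at 11 hpf, then 35.5%, 54.5% and 53.2% at 24 hpf, the larger part in 11_2, 24_2 and 24_3. The cytosolic sums left without them were 674, 445 and 549 FPKM at 24 hpf, against 393, 215 and 433 at 11 hpf. As deposited these sums did not overlap, but the gap was narrow, with 445 in 24_2 against 433 in 11_3. Other scalings of these sums were not run. Taken by symbol, the mitochondrial summed FPKM was 25.03, 80.7 and 18.4 at 6 hpf, 125, 69.3 and 121 at 11 hpf, then 171, 127 and 188 at 24 hpf. All cells at 24 hpf exceeded the earlier ones as deposited, with 127 in 24_2 against 125 in 11_1, but not with a common total per cell, where 24_2 had 215 and 11_1 had 226, nor with median-of-ratios scaling, where they had 105 and 113. Without wars2 the sums were 108, 16.3 and 88.4 at 24 hpf, against 125, 69.3 and 63.7 at 11 hpf, and the stages overlapped. The difference in median change, cytosolic minus mitochondrial, was -1.06 between 11 and 6 hpf and 0.21 between 24 and 11 hpf, each within the spread between cells of 1.54 and 0.91. With no filter on low values the first was 0.26.

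A pair of genes, wars2 and pars2, made up most of the mitochondrial sum in 7 of 9 cells, all but 6_1 and 6_2. pars2 was highest in 11_1 and 24_1, at 73.5 and 92.7 FPKM, and was listed at 0 in 24_2 and 24_3, where wars2 was at 111 and 100.1. cars2 was at 4.10 and 12.1 FPKM in 6_1 and 6_2, 5.28, 11.5 and 5.17 at 11 hpf, then 14.9 and 15.0 in 24_1 and 24_2, and was listed at 0 in 6_3 and 24_3. yars2 was found at 9.53 in 6_2, 37.3 in 11_1 and 38.3 in 24_3. vars2 was between 6.39 and 8.60 in 4 cells, and iars2 did not exceed 4.73 in any.

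**Figure D4:**
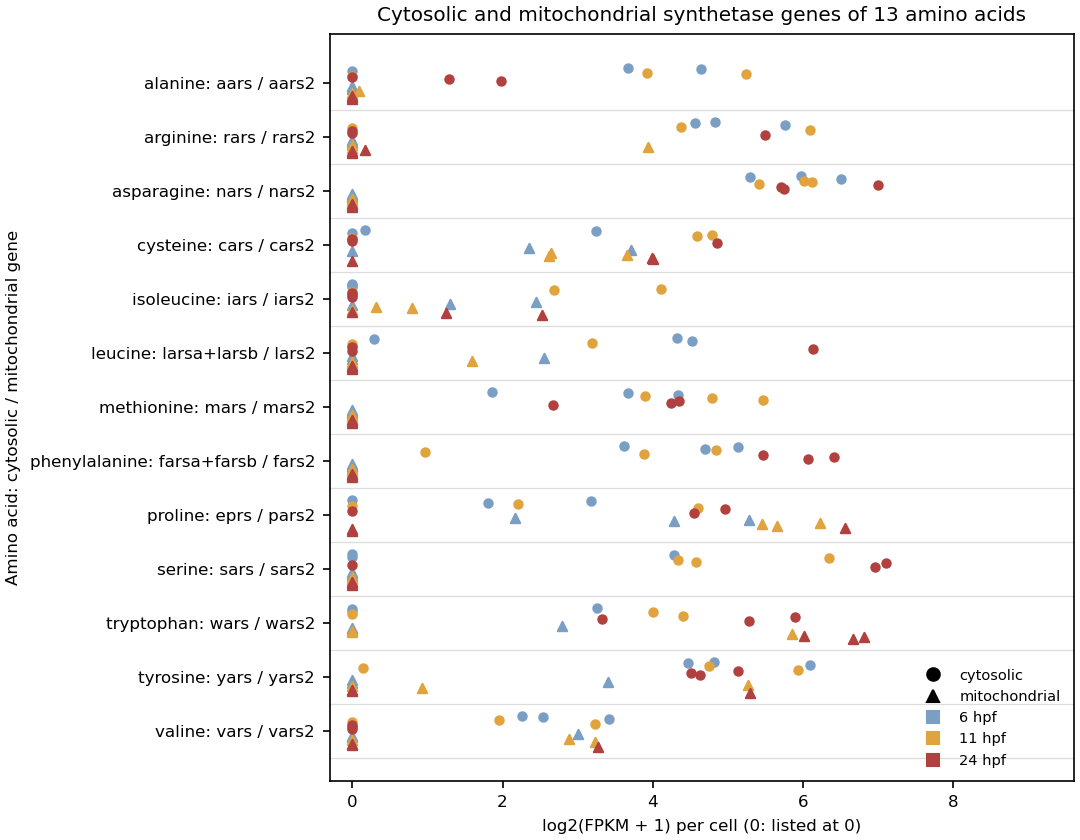
log2 of the FPKM plus 1 in each cell for 13 amino acids with a cytosolic (circles) and a mitochondrial (triangles) gene, coloured by stage. Circles lie to the right for most amino acids, whereas for proline the triangles lie to the right in 7 of 9 cells and for tryptophan in all 3 cells at 24 hpf. The triangles of phenylalanine, methionine, asparagine and serine are at 0 in every cell.

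For 13 amino acids with a gene in each compartment the levels were compared within each cell. The cytosolic gene was higher in all 9 cells for phenylalanine (farsa and farsb added), methionine and asparagine. The mitochondrial genes of these amino acids were listed at 0 in every cell, so this order only shows that the cytosolic genes were found. For alanine and serine it was higher in 6 cells, with no cell the other way and both genes listed at 0 in 3 cells. Here too sars2 was listed at 0 throughout, and aars2 reached at most 0.0622 FPKM. The cytosolic gene was higher in 7 of 9 cells for tyrosine and in 6 against 2 for arginine. For leucine (larsa and larsb added) it was higher in 4 against 1, with all listed at 0 in 4 cells. The order was turned round for proline, where pars2 exceeded eprs in 7 cells and eprs exceeded pars2 only in 24_3. For tryptophan wars2 exceeded wars in 4 cells, 11_3 and all 3 at 24 hpf, and wars exceeded wars2 in 2. cars2 exceeded cars in 5 cells and iars2 exceeded iars in 4, while vars and vars2 each led in 3.

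Mitochondria have no glutaminyl enzyme of their own in vertebrates and instead convert tRNA charged with glutamate by an amidotransferase. Of its genes, gatb was at 19.9 and 21.5 FPKM in 6_2 and 6_3 and 16.2 in 24_1 and was listed at 0 in all other cells, and qrsl1 was at 8.25, 11.4 and 62.7 at 6 hpf, 35.7 in 11_1, 34.5 in 11_3 and 111 in 24_3. mtfmt, which formylates the mitochondrial initiator, was at 25.01 and 35.6 FPKM in 6_1 and 6_2 and 12.4 and 34.9 in 11_2 and 11_3, and was listed at 0 at 24 hpf. Of 9 mitochondrial translation factors compared, 4 were 2-fold higher and 3 were 2-fold lower at 24 than at 11 hpf, beside 26.1% and 31.5% of all genes. Of these 9, the 2 genes gfm1 and gfm2 were higher in every cell at 24 hpf, beside 8.62% of all genes. gfm1 was at 13.6, 17.2 and 1.79 FPKM against values listed at 0 at 11 hpf, and gfm2 at 37.8, 22.2 and 24.6 against 17.6, 0 and 6.50.

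Selenocysteine is made on its tRNA after a seryl enzyme has charged it. Of the 4 genes measured from a list drawn up for this path, 1 was 2-fold higher and 3 were 2-fold lower at 24 than at 11 hpf. The shares of all genes were the same 26.1% and 31.5%. secisbp2 was at 5.11, 0 and 6.18 FPKM at 6 hpf and 18.0, 5.31 and 15.4 at 11 hpf, and was listed at 0 at 24 hpf. sepsecs, which forms the selenocysteine on the tRNA, was at 19.2, 46.1 and 70.5 at 6 hpf and at 83.3 and 88.0 in 11_1 and 11_3, and eefsec was at most 34.1. Both were listed at 0 at 24 hpf. sephs1 was at 161, 173 and 90.6 FPKM at 24 hpf, against 31.7, 85.4 and 78.5 at 11 hpf. Its cells did not overlap as deposited, but the gap from 85.4 to 90.6 was narrow, and other scalings of it were not run. Of the 4 genes, 1 was higher and 1 was lower in every cell at 24 than at 11 hpf, beside 8.62% and 10.2% of all genes.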

How the data were processed

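Full-length cDNA of each PGC was made by Smart-seq2, 1 library per cell. Reads were cleaned (Trimmomatic), aligned to danRer10 (HISAT2 2.0.5) and assigned to Ensembl genes (StringTie 1.3.3) by the authors, who deposited FPKM values for all genes without read counts. How depth limits a single value is therefore unknown. StringTie was not stated to use strand, so reads of overlapping genes cannot be told apart.

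From these, Python 3.11.15 with numpy 2.4.6 and pandas 2.3.3 computed all values, and matplotlib 3.10.9 drew the plots. Genes reaching 1 FPKM in 3 or more of the 9 cells were compared, 9329 in all, as log2 of the stage mean plus a pseudocount of 1. Some passed this limit only through the stage where they were high, and no share was recomputed without them. Because a stage is 1 embryo, no p-value was computed, and calls are differences of at least 1 in size. The calculations were tested on simulated data. Members are named with their values or range, apart from 1 mitochondrial member, which enters the sums and counts but is not reported here, nor is 1 gene of the lists. Members described in full for a comparison are those past this size without overlap between cells. Those listed at 0 throughout 1 stage and at 1 FPKM or more throughout the other are also described. From the gene lists other than the cell type markers, genes meeting the same rule are given, or whole lists of at most 6 measured genes. Members and lists were chosen with earlier results of these data known. Of 36 member identifiers 34 had a symbol in the gene name table. Alternatives were other filters, pseudocounts, scalings, averages and call sizes, and leaving out cells. Others left out gars, kars, hars and qars, or counted kars and hars as mitochondrial. None of these alternatives was run for the single genes of the gene lists. The edgeR calls of the study need counts and were not repeated. Sequences were not used here.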

Additional observations from a re-analysis of the deposited data

How the results depend on the processing

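No paired analysis was possible because the cell numbers only name 3 cells within an embryo and no result comes from a test. The medians of the cytosolic and mitochondrial members and their difference stayed within the spread between cells of the reported value under all alternatives run, but several turned in sign, being themselves within it. Leaving out single cells, the cytosolic median ran from -0.22 to 0.37 between 11 and 6 hpf and from 0.01 to 0.97 between 24 and 11 hpf, and the cytosolic minus mitochondrial difference between 24 and 11 hpf from -0.30 to 0.92. Without gars, kars, hars and qars that difference was -0.31, and without both 24_1 and 24_2 it was -0.51. The same difference between 11 and 6 hpf, reported as -1.06, ran from -1.47 to -0.48 without single cells and was 0.26 with no filter on low values. The mitochondrial median between 11 and 6 hpf ran from 0.44 to 1.84 without single cells and was 0.01 with no filter, and that between 24 and 11 hpf was -0.30 with the mean of log values. Median-of-ratios scaling moved the median of all genes by -0.10 in both comparisons. Of the alternatives to the medians and counts, 167 stayed near the reported value and 40 moved, all of them counts of 2-fold calls. For a median, near meant a shift smaller than the spread between cells, which exceeded the size of every reported median. The tally therefore cannot show that the medians are stable. For a count, near meant within a fixed ratio of the reported count.

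Between 11 and 6 hpf 7 cytosolic members were called higher, against 3 with a pseudocount of 10, 2 at a log2 difference of at least 2, 1 when cells were also not to overlap, and 4 to 8 without single cells. The 4 called lower were 2 at FPKM of at least 5, 0 with a pseudocount of 10, 1 at a difference of 2, 0 without overlap, and 1 to 8 without single cells. The 3 mitochondrial members called higher were 1 at a difference of 2 and 1 without overlap. The 1 called lower was 2 with no filter, 0 at FPKM of at least 5, with a pseudocount of 10, with the mean of log values, at a difference of 2 and without overlap, and 0 to 2 without single cells.

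Between 24 and 11 hpf the 7 cytosolic members called higher were 3 at a difference of 2 and 2 without overlap, and the 5 called lower were 3 at FPKM of at least 5, 2 with a pseudocount of 10, 2 at a difference of 2 and 0 without overlap. The 2 mitochondrial members called higher were 1 at FPKM of at least 5, with a pseudocount of 10, with median-of-ratios scaling, with the mean of log values, at a difference of 2 and without overlap, and 1 to 3 without single cells. The 0 called lower were 1 with no filter, 1 with the mean of log values, 0 to 2 without single cells, and 2 without both 24_1 and 24_2, a choice made after seeing the data. Stricter filters and sizes leave fewer genes by construction. For the other settings the cause was not tested.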

Other observations

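Genes around the synthetases were read from further lists. Of 21 genes of the integrated stress response compared, a response that in mammals switches on several cytosolic synthetase genes through Atf4, 5 were 2-fold higher and 8 were 2-fold lower at 11 than at 6 hpf, beside 21.7% and 21.8% of all genes. Of the 21 genes, 4 were 2-fold lower and 1 was 2-fold higher without overlap between the stages, beside 6.19% and 4.89% of all genes. Each of the 4 lower genes reached 1 FPKM in fewer than 3 cells outside 6 hpf. They thus passed the limit for comparison only through the stage where they were high, and their count is no support for a fall. ppp1r15a, a regulator of eIF2 dephosphorylation, had no FPKM in any cell at 11 hpf, against 86.5, 61.4 and 126 at 6 hpf. asns, the asparagine synthetase, was at 1.07, 0 and 0 FPKM at 11 hpf, against 19.5, 14.3 and 25.7 at 6 hpf, and was listed at 0 at 24 hpf. ddit3, a stress transcription factor, was at 0, 2.47 and 0 FPKM at 11 hpf, against 7.47, 37.5 and 16.1 at 6 hpf, and it was listed at 0 at 24 hpf too. vldlr was at 6.64, 0.954 and 0 at 11 hpf, against 7.80, 24.8 and 23.3 at 6 hpf. cebpb was at 0.828, 0.793 and 33.1 FPKM at 11 hpf and listed at 0 at 6 hpf. The others 2-fold higher at 11 hpf were atf4a, trib3, psat1 and ddit4, and their cells overlapped with those at 6 hpf. atf4a was at 42.8, 19.0 and 86.6 FPKM at 11 hpf, against 24.1, 0 and 7.49 at 6 hpf. atf4b differed by 0.76 and was not called. At 24 hpf, trib3 was at 27.6, 34.6 and 0 FPKM, against 85.1, 113 and 37.8 at 11 hpf. Between 24 and 11 hpf 5 genes of this list were 2-fold higher and 3 were 2-fold lower, beside 26.1% and 31.5% of all genes.

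From the list of trans-editing and synthetase-like genes 4 were compared. At 11 hpf 2 were 2-fold higher and 2 were 2-fold lower than at 6 hpf, beside 21.7% and 21.8% of all genes. In every cell at 11 hpf 1 was higher and 2 were lower, beside 5.78% and 6.96% of all genes. Of these, dtd2, which clears wrongly charged tRNA, was listed at 0 in the 3 cells at 11 hpf. It was at 40.2, 96.5 and 27.6 FPKM at 6 hpf and was found again in 2 of 3 cells at 24 hpf. dtd1 was at 163, 34.1 and 35.8 FPKM at 11 hpf, against 24.4, 13.3 and 24.5 at 6 hpf.

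Of 18 tRNA processing genes compared, 5 were 2-fold higher and 4 were 2-fold lower at 24 than at 11 hpf. The shares of all genes were 26.1% and 31.5%. In every cell at 24 hpf 1 was higher and 4 were lower than at 11 hpf, beside 8.62% and 10.2%. Between 11 and 6 hpf 6 were 2-fold higher and 5 were 2-fold lower, beside 21.7% and 21.8%. Of the 18, 4 were higher and 1 was lower in every cell at 11 than at 6 hpf, beside 5.78% and 6.96%. dkc1, an RNA pseudouridine synthase, was at 146, 81.1 and 227 FPKM at 24 hpf, against 735, 681 and 949 at 11 hpf. ssb, which binds new tRNA transcripts, was at 0, 7.81 and 0 at 24 hpf, against 67.1, 87.2 and 76.1 at 11 hpf. trmt1 was listed at 0 at 24 hpf and was at 11.6, 10.4 and 9.002 at 11 hpf. tsen34, a subunit of the tRNA splicing endonuclease, was at 184, 113 and 151 at 24 hpf, against 35.7, 86.9 and 0 at 11 hpf. Between 11 and 6 hpf, elac1 was at 154, 125 and 121 FPKM at 11 hpf, against 24.0, 28.1 and 110.5 at 6 hpf, and rpp30 at 22.7, 7.37 and 0.834, against 69.9, 53.8 and 36.8. In the same comparison ssb, at 0.186, 61.1 and 31.2 FPKM at 6 hpf, and trmt1, at 7.36, 0 and 0, were higher in every cell at 11 hpf.

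Of 6 amino acid transporter genes compared, 1 was 2-fold higher and 4 were 2-fold lower at 24 than at 11 hpf, beside 26.1% and 31.5% of all genes. slc38a9 was at 0, 0.0586 and 0 FPKM at 24 hpf, against 40.8, 32.5 and 14.03 at 11 hpf, and slc43a1a at 40.0, 4.03 and 0, against 94.9, 70.3 and 56.8. At 6 hpf slc43a1a was at 25.7, 3.29 and 30.9 FPKM, below every cell at 11 hpf. Among the 6 genes, 2 were lower in every cell at 24 than at 11 hpf, beside 10.2% of all genes. In every cell at 11 hpf 1 of them was higher than at 6 hpf, beside 5.78%. Of 9 cytosolic elongation and release factors compared, 2 were 2-fold higher and 1 was 2-fold lower, beside the same shares of all genes. The lower one was gspt1l, at 0, 36.6 and 0 FPKM at 24 hpf against 137, 156 and 56.0 at 11 hpf. eef1db, of the elongation factor 1 complex, was at 27.7, 25.5 and 20.9 FPKM at 11 hpf, against 0, 16.6 and 14.3 at 6 hpf. Among the 9 factors, 1 was lower in every cell at 24 than at 11 hpf, beside 10.2% of all genes. In every cell at 11 hpf 2 of them were higher than at 6 hpf, beside 5.78%.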
